A study of Rattus norvegicus with 4 samples.

Results

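Nuclear genes for the respiratory chain were examined in rat embryonic stem cells (ESCs) with and without *Thop1*, the gene of thimet oligopeptidase, a metallopeptidase that degrades short peptides. Members were the protein-coding genes outside the mitochondrial genome whose symbols begin with Nduf, Uqcr, Cox4 to Cox8 or Atp5, or are Sdha, Sdhb, Sdhc or Sdhd. The rule took 97 of the 34773 genes in the deposited table, of which 47 were assigned to complex I, 4 to complex II, 9 to complex III, 20 to complex IV and 17 to complex V. A processed pseudogene carrying the symbol *Ndufs6* was not taken. The 97 members use 93 distinct symbols, because *Cox6b1*, *Ndufa10l1*, *Ndufv3* and *Uqcrb* each name a pair of entries on different chromosomes. By symbol the rule also took 8 Ndufaf genes, which encode assembly factors of complex I and are not subunits of it. The loci of 20 members overlap another gene of the table.

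The respiratory chain lies in the inner mitochondrial membrane. Complexes I and II pass electrons from NADH and succinate to ubiquinone, complex III passes them to cytochrome c and complex IV to oxygen, and ATP synthase, counted here as complex V, uses the proton gradient that complexes I, III and IV build. Most subunits are encoded in the nucleus and join a small set encoded in mitochondrial DNA, so a working complex needs products of both genomes. Naive ESCs use oxidative phosphorylation beside glycolysis.

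Poly(A) RNA was sequenced from 4 libraries, all labelled as embryonic stem cells. The control was 1 library of DA-5-3GFP, a rat ESC line without a *Thop1* deletion, and the other 3 were *Thop1*-KO subclones #1, #2 and #3, made from that line with Cas9 and selected with puromycin. Both genotypes carried a *Rex1*-GFP reporter, and the study grew its ESCs on a feeder layer with 2i/LIF medium. The paper treats DA-5-3 as a wild-type line distinct from its haploid line, whereas the deposited design text names haploid cells. Each subclone is 1 clone and gave 1 library, and the control is 1 culture, so culture and genotype cannot be told apart, and only the 3 subclones give a spread between replicates. The p-values measure the spread between these libraries only, and the smallest p that an exact permutation test allows with 1 library against 3 is 0.25.

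Counts on genes summed to between 15405499 and 17936544 per library. *Thop1* had 110, 92.5 and 149 CPM (counts scaled to library size with edgeR's TMM factors) in #1, #2 and #3 and 370 CPM in the control, so transcript remained in every subclone at 25.0% to 40.3% of the control level (log2 fold change -1.66 ± 0.29 SE, adjusted p = 0.0187). The paper reports the knockout of these subclones from DNA sequencing, *Thop1* expression and a western blot of THOP1, and RNA counts do not measure the protein. The ESC marker *Pou5f1* was at 4842, 3889 and 4776 CPM in the subclones and 4794 CPM in the control. Of 9 ESC marker symbols 8 were found, in 9 entries, and *Zfp42* (*Rex1*) was not found by that symbol. Among these entries edgeR called *Esrrb* and *Tfcp2l1* higher in the subclones and *Utf1* lower, beside 13.8% called over all genes tested. Of 10 feeder fibroblast markers, 9 were found and 6 tested. The control was below all 3 subclones for 5 of the 6, beside 38.1% of all genes tested. None was called by edgeR. At an unadjusted p under 0.05 there were 2, beside 5110 of all 15028 genes tested. DESeq2 called 1 of the feeder markers and limma 0. Their summed level was 386, 787 and 501 CPM in #1, #2 and #3 and 266 CPM in the control, while *Thy1*, *Lum* and *Dcn* had 0 counts in all 4 libraries. The part of feeder cells in the results below was not tested, and in bulk RNA fewer cells of a type cannot be told apart from less RNA per cell.

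Of the 97 members, 91 passed the filter on low counts. edgeR's quasi-likelihood test called 10 of the 91 at an adjusted p under 0.05, 1 higher and 9 lower in the *Thop1*-KO subclones. Over all 15028 genes tested, 13.8% were called, 8.62% higher and 5.17% lower. The members lower in the subclones were *Uqcrb* on chromosome 7, *Ndufaf4*, *Atp5mc1*, *Atp5me*, *Ndufb3*, *Ndufs4*, *Cox7c*, *Cox5a* and *Atp5mc3*, and the member that rose was *Ndufaf1*. The median log2 fold change was -0.35 over the members and 0.06 over all genes tested, and 75 of the 91 members lay below 0 against 48.1% of all genes. The control was above all 3 subclones for 63 members and below all 3 for 12, against 37.6% and 38.1% of all genes. At an unadjusted p under 0.05 there were 37 of the 91 members, beside 5110 of all 15028 genes tested. Unadjusted counts from this fit given for parts and lists stand beside that same share. Without subclone #2 the same test called 34 members lower and 8 higher, with 37.9% of all genes called, and without #3 it called 1 lower and 0 higher, with 3.10% of all genes called. With all libraries, DESeq2 called 14 members lower (21.5% of all genes called), edgeR with upper-quartile scaling 15 (14.4%), limma on log2(FPKM + 1) 3 (12.8%), limma on log2(FPKM + 0.1) 0 (9.17%) and limma without a filter 2 (2.43%). At a pseudocount of 0.1, limma gave 16 members lower at an unadjusted p under 0.05. With library size as the only scaling, 2 members were called higher (13.6% of all genes called). With a correction for gene length, described further on, 5 members were called lower and 1 higher (13.5%).

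Summed over all 97 members, the level was 22062, 18535 and 19944 CPM in #1, #2 and #3 and 22037 CPM in the control, which thus lay inside the range of the subclones. Per length the order differed, with summed FPKM (fragments scaled to exon length and library size, as deposited) of 25004, 21240 and 21495 in the subclones and 28007 in the control. The mean of the subclones was 80.6% of the control on that scale, beside 81.6% for the sum over all tested genes. *Atp5f1b* alone, the catalytic beta subunit of ATP synthase, made up 4173, 3228 and 4094 CPM of the subclone sums and 2381 CPM of the control sum.

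**Figure D1:**
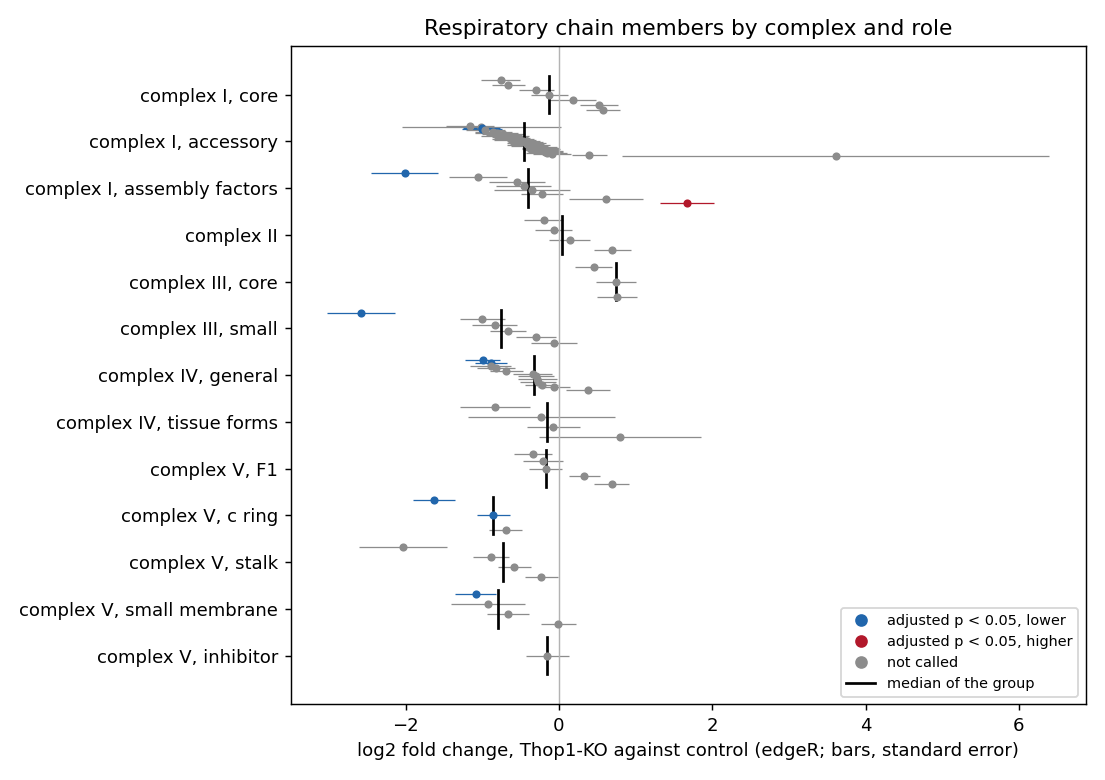
Log2 fold change of the 91 tested members in *Thop1*-KO subclones (n = 3) against the control (n = 1), x axis, by complex and role, y axis; bars are standard errors, black ticks group medians, and colours mark the 9 members called lower and the 1 called higher. The 3 complex III members counted as core lie to the right of 0, the 3 c ring genes lie to its left, and *Ndufa1* at 3.61 has the widest bar.

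The promoters of 3 members are printed, one for each pattern in the comparison. *Atp5me* was called lower, *Ndufaf1* was called higher, and *Uqcrc1* was not called but was lower in the control than in any subclone. They were taken from RefSeq on the assembly GRCr8, from 250 bases before to 50 after the annotated start, and are written 5′ to 3′ on the strand of the gene. Capitals mark matches on either strand to the core letters of sites known for nuclear respiratory genes, namely NRF1 (GCGCATGC), ETS factors such as GABP (CCGGAAG) and YY1 (AAGATGGC). *Atp5me* lies at chr14:1464610-1464909 on the plus strand, *Ndufaf1* at chr3:127103971-127104270 on the minus strand and *Uqcrc1* at chr8:118467973-118468272 on the plus strand.
Atp5me: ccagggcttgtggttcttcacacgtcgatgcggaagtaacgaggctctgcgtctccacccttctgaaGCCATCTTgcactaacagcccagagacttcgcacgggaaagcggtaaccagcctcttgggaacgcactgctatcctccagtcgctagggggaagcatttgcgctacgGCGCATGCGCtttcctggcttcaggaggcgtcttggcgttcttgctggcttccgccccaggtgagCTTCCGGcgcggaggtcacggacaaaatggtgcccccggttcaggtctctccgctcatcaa
Ndufaf1: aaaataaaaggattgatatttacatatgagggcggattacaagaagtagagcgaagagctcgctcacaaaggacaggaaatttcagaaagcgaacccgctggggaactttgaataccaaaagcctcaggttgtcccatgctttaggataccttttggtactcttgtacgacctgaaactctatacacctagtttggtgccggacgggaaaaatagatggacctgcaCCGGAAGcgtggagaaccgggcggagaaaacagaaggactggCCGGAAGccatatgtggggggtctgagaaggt
Uqcrc1: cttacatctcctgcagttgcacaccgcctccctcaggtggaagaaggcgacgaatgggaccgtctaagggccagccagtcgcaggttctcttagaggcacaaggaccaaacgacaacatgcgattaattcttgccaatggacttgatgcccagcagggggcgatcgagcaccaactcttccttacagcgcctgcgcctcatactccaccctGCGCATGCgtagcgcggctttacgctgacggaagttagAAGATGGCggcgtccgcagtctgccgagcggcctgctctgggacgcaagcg

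*Atp5me* holds all 3 motifs, with NRF1 matches on both strands that overlap, *Ndufaf1* holds the ETS letters at 2 places, and *Uqcrc1* holds those of NRF1 and YY1. Promoters of 79 of the 93 member symbols were found on the same chromosome as the member. The NRF1 letters were in 11 of them (13.9%), against 2.66% of all 27457 promoters and 5.19% of those of 9590 tested genes. The ETS letters were in 21 (26.6%), against 9.22% and 18.1%, and the YY1 letters in 16 (20.3%), against 3.44% and 5.74%. At least 1 of the motifs was in 36 of the 79 promoters, in 3 of the 8 promoters of members called lower, and in the promoter of *Ndufaf1*. The median GC content was 56.0% in the members' promoters, between the 52.3% of all promoters and the 61.3% of those of tested genes. A match describes these letters in this window and is not evidence of binding.

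Complex I takes electrons from NADH through a set of core subunits that bind flavin and iron-sulfur clusters, surrounded by many accessory subunits. In complex I 3 of the 45 tested members fell and 1 rose, beside 5.17% called lower and 8.62% called higher over all genes tested. The median log2 fold change of complex I was -0.43. The median was -0.45 over the 30 tested accessory members and -0.12 over the 7 nuclear core subunits. None of the core subunits was called in the main edgeR fit (TMM, all 4 libraries), against 3 at an unadjusted p under 0.05. DESeq2 called 0 of them, limma on log2(FPKM + 1) 0 and the same without a filter 1. Among the accessory members the control was above all 3 subclones for 26 of the 30 and below all 3 for 1. Over all genes tested these shares were 37.6% and 38.1%.

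Both called subunits of complex I were lower in every subclone than in the control. *Ndufb3* (ENSRNOG00000011825, chromosome 9, 65478496 to 65488702, plus strand), an accessory subunit of the membrane arm, was at 82.7, 84.7 and 67.9 CPM in #1, #2 and #3 and 158 CPM in the control. The subclones lay close together and well under the control, and the log2 fold change was -1.01 ± 0.24 SE (adjusted p = 0.0409). *Ndufs4* (ENSRNOG00000011383, chromosome 2, 46372518 to 46476203, minus strand), an accessory subunit near the NADH-oxidizing module whose loss is a known cause of Leigh syndrome, was at 48.5, 61.2 and 48.3 CPM against 106 CPM. Its log2 fold change was -1.00 ± 0.26 SE (adjusted p = 0.0480), just inside the threshold.

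The 2 called assembly factors moved in opposite directions. *Ndufaf4* (ENSRNOG00000007506, chromosome 5, 39251337 to 39257512, plus strand), which acts in an early step of complex I assembly, was at 5.37, 11.4 and 10.7 CPM in #1, #2 and #3 and 37.0 CPM in the control. Subclone #1 was the lowest, and none reached the control (log2 fold change -2.01 ± 0.43 SE, adjusted p = 0.0307). *Ndufaf1* (ENSRNOG00000005006, chromosome 3, 111458572 to 111469518, minus strand), a subunit of the MCIA complex that builds part of the membrane arm, was at 21.0, 26.0 and 25.0 CPM in the subclones and 7.54 CPM in the control. The control was below all 3 subclones, as for 38.1% of all tested genes, and the subclones varied little among themselves (log2 fold change 1.67 ± 0.35 SE, adjusted p = 0.0294). Without #3, neither assembly factor was called. Among the 9 complex I assembly factors outside the rule, 1 rose and 0 fell by edgeR, beside 13.8% of all genes called. At an unadjusted p under 0.05, 2 of the 9 were below 0, and DESeq2 and limma on log2(FPKM + 1) also called 0 lower. The one that rose was *Foxred1*, which has a role in complex I assembly beside its oxidoreductase fold, at 11.7, 11.5 and 10.5 CPM against 3.70 CPM (1.60 ± 0.39 SE, adjusted p = 0.0414).

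The core subunits of complex I lay on both sides of 0. *Ndufs7*, which carries the last iron-sulfur cluster before ubiquinone, was at 185, 134 and 168 CPM in #1, #2 and #3 and 275 CPM in the control (-0.76 ± 0.25 SE, adjusted p = 0.0884). *Ndufs3* was at 96.7, 99.1 and 97.7 CPM against 154 CPM (-0.66 ± 0.22 SE, adjusted p = 0.0905), and it overlaps another gene of the table. For both, every subclone was below the control. The opposite order was seen for the largest core subunit *Ndufs1*, at 215, 217 and 205 CPM against 142 CPM (0.58 ± 0.23 SE, adjusted p = 0.129). The log2 fold changes of *Ndufs8*, *Ndufv1* and *Ndufv2* were -0.29, 0.18 and -0.12. *Ndufb7*, the complex I member with the highest mean level per length, was at 496, 439 and 409 FPKM in the subclones and 531 FPKM in the control. *Ndufa4*, named for complex I but found with complex IV in later work, was at 124, 143 and 116 CPM against 199 CPM and was not called (-0.64 ± 0.24 SE, adjusted p = 0.110).

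Complex II, succinate dehydrogenase, is the only complex of the chain that is encoded wholly in the nucleus. None of its 4 subunits was called in the main edgeR fit, by DESeq2 or by limma, and that edgeR fit gave 1 at an unadjusted p under 0.05. *Sdha* was called higher in 1 of 14 alternative settings. The flavoprotein *Sdha* was at 264, 226 and 245 CPM in #1, #2 and #3 and 151 CPM in the control, lower in the control than in any subclone (0.70 ± 0.24 SE, adjusted p = 0.0925). *Sdhb*, *Sdhc* and *Sdhd* had log2 fold changes of 0.14, -0.07 and -0.20, and for each the control lay within the range of the subclones. The median of the 4 was 0.03, and it was -0.07 with upper-quartile scaling. Of the 3 tested complex II assembly factors, *Sdhaf2*, which helps to attach flavin to Sdha, fell, with 22.5, 23.8 and 22.8 CPM against 50.1 CPM (-1.12 ± 0.26 SE, adjusted p = 0.0366).

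In complex III, which moves electrons from ubiquinol to cytochrome c, the 3 core members taken by the rule and most of the small members lay on opposite sides of the control. The 3 core members (*Uqcrc1*, *Uqcrc2* and *Uqcrfs1*) were all higher in every subclone than in the control, with a median log2 fold change of 0.74. The 6 small members had a median of -0.75, and the control was above all subclones for 5 of them. Over all genes tested, the control was below all 3 subclones for 38.1% and above all 3 for 37.6%. Summed CPM of the core members was 1412, 1066 and 1282 in #1, #2 and #3 and 863 in the control, and the mean of the subclones was 145% of the control. Summed CPM of the small members was 587, 587 and 475 in the subclones against 873, a mean of 63.0% of the control. None of the core members was called by edgeR, with 2 at an unadjusted p under 0.05, and DESeq2 and limma also called 0. Without #2, all 3 were called higher, in a fit that called 37.9% of all genes. The contrast between core and small members was not tested as a group.

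The Rieske iron-sulfur protein *Uqcrfs1* was at 322, 249 and 317 CPM in #1, #2 and #3 and 177 CPM in the control (0.74 ± 0.26 SE, adjusted p = 0.0995). *Uqcrc2* was at 97.2, 84.2 and 85.3 CPM against 52.4 CPM (0.76 ± 0.26 SE, adjusted p = 0.0935), and it overlaps another gene. *Uqcrc1*, whose promoter is printed above and which had the highest level per length in complex III, was at 992, 733 and 880 CPM against 634 CPM (0.45 ± 0.25 SE, adjusted p = 0.234). *Cyc1*, the cytochrome c1 of the same complex but outside the rule, was at 557, 399 and 459 CPM against 532 CPM, with the control inside the range of the subclones. The mitochondrially encoded cytochrome b, *Mt-cyb*, was lower in every subclone, at 909, 1188 and 1219.5 CPM against 1777 CPM (-0.68 ± 0.23 SE, adjusted p = 0.0908). Neither is among the core members counted above, so the contrast covers those nuclear members only.

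The called member of complex III was *Uqcrb*, a small subunit near the ubiquinone site, in its entry on chromosome 7 (ENSRNOG00000024967, 71264514 to 71269869, minus strand). It was at 9.12, 7.86 and 3.95 CPM in #1, #2 and #3 and 41.9 CPM in the control (-2.58 ± 0.44 SE, adjusted p = 0.0181). This was the lowest log2 fold change among the tested members, and #3 was the lowest library. The second *Uqcrb* entry, on chromosome 1, was at 15.6, 18.8 and 16.8 CPM against 30.4 CPM and was not called (-0.83 ± 0.29 SE, adjusted p = 0.101). Reads can be shared between near-identical entries, and when both were summed, a step added after seeing the data, the counts were 414, 472, 372 and 1074 (-1.59 ± 0.27 SE, adjusted p = 0.0170).

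Complex IV, cytochrome c oxidase, had 2 of 16 tested members called lower and 0 higher by edgeR, beside 5.17% and 8.62% of all genes tested. At an unadjusted p under 0.05 there were 5 lower and 0 higher, and DESeq2 and limma likewise called 0 higher. DESeq2 called 2 lower, and the 3 limma settings called 0 lower, with 5, 3 and 4 lower at an unadjusted p under 0.05. *Cox5a* (ENSRNOG00000018816, chromosome 8, 62298358 to 62309765, plus strand), a matrix-side subunit that joins early in assembly, was at 318, 274 and 286 CPM in #1, #2 and #3 and 542 CPM in the control (-0.89 ± 0.21 SE, adjusted p = 0.0385). *Cox7c* (ENSRNOG00000030237, chromosome 2, 14699882 to 14701903, minus strand), a small membrane subunit whose locus overlaps a second entry, was at 127, 126 and 104 CPM against 238 CPM (-0.99 ± 0.23 SE, adjusted p = 0.0377). In both the subclones were close together and all below the control.

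The other general subunits were not called in the main edgeR fit. *Cox4i1*, the largest nuclear subunit, was at 632, 525 and 605 CPM in #1, #2 and #3 and 686 CPM in the control (-0.22 ± 0.22 SE, adjusted p = 0.489), and *Cox5b* was at 502, 453 and 492 CPM against 505 CPM (-0.07 ± 0.21 SE, adjusted p = 0.844). Among these, *Cox6a1* had the highest level per length of complex IV, at 1721, 1184 and 1384 FPKM against 1739 FPKM. *Cox7a2l*, an assembly factor of supercomplexes, was at 405, 266 and 348 CPM against 261 CPM, the one general member below all subclones in the control (0.38 ± 0.29 SE, adjusted p = 0.383). The remaining general members named by paralog, *Cox6b1* on chromosomes 1 and 2, *Cox6c*, *Cox7b* and *Cox8a*, had log2 fold changes of -0.69, -0.89, -0.27, -0.82 and -0.34. For each the control was above all 3 subclones, as for 37.6% of all tested genes.

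Forms of complex IV subunits that are typical of other tissues ranged from 0 counts in every library to the levels of *Cox6b2* and *Cox7b2* given here. *Cox6a2* and *Cox8c* had 0 counts in every library and *Cox8b* had 1 count in #2, where a count of 0 allows up to 0.179, 0.170 and 0.167 CPM in the subclones and 0.202 CPM in the control. *Cox4i2*, the lung and hypoxia form, took 0.0718%, 0.0448% and 0.0829% of the summed FPKM of *Cox4i1* and *Cox4i2* in #1, #2 and #3 and 0.0679% in the control. *Cox6b2*, a testis form, took 5.53%, 2.88% and 6.04% against 5.12% of the sum with *Cox6b1*. *Cox7b2* took 22.1%, 20.5% and 22.0% of the sum with *Cox7b* in the subclones and 14.1% in the control. This last share was higher in every subclone, while the *Cox7b2* level itself was 15.7, 13.2 and 11.7 CPM against 14.3 CPM and *Cox7b* was at 110, 102 and 82.9 CPM against 174 CPM. *Cox7a1*, the heart form, was at 0.417 to 0.679 CPM in the subclones and 0.336 CPM in the control (0.79 ± 1.06 SE, adjusted p = 0.621). *Ndufa4l2*, a hypoxia-induced relative of *Ndufa4*, had 1 count in each library. The other members that were not tested, *Ndufa10l1* on chromosome 6 and *Cox6c-ps1*, had 0 counts in every library.

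**Figure D2:**
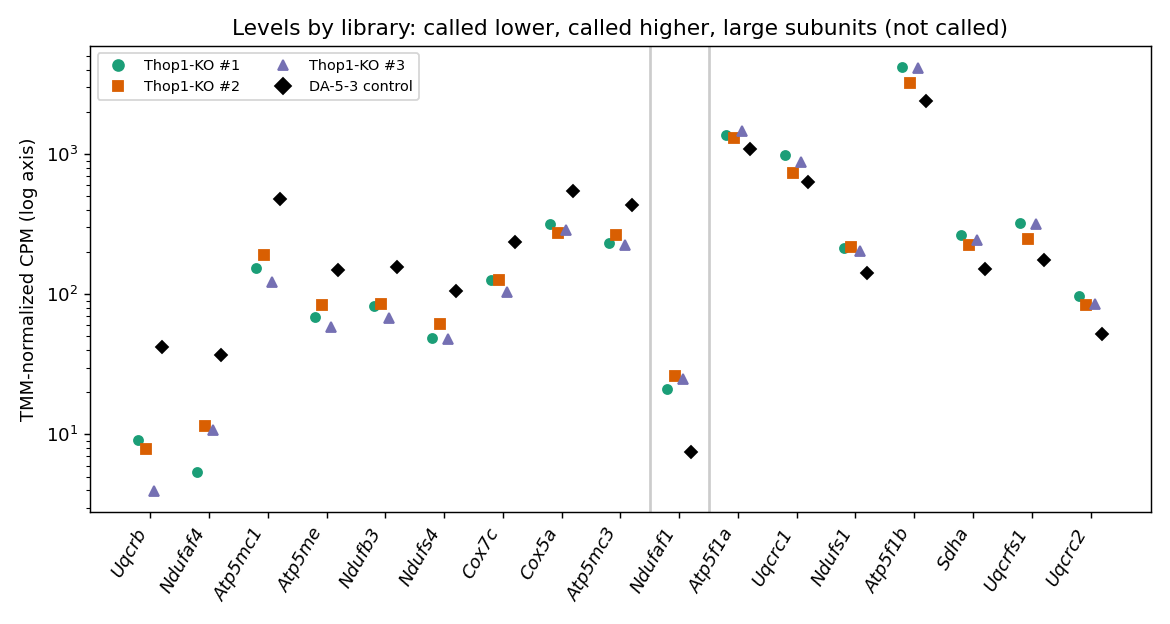
TMM-normalized CPM (log axis) of the 9 members called lower, the 1 called higher and 7 large or catalytic subunits that were not called, with 1 point per library. The control diamond lies above all 3 subclones for the 9 on the left and below them for *Ndufaf1* and the 7 on the right. The 7 are a selection of such subunits with the control below all 3 subclones. Among others not drawn, the control was above all 3 for *Ndufs3*, *Ndufs7*, *Cox4i1* and *Atp5f1c* and inside their range for *Ndufv1* and *Sdhb*.

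ATP synthase consists of a catalytic F1 head, a stalk and a membrane part with a rotating ring of c subunits. Of its 17 tested members 3 fell and 0 rose by edgeR, beside 5.17% called lower and 8.62% called higher over all genes tested. At an unadjusted p under 0.05, 1 member was above 0, and DESeq2 and limma called 0 higher. The lower calls were 4 with DESeq2, 1 with limma on log2(FPKM + 1) and 0 with the other limma settings, where 5 and 7 members were lower at an unadjusted p under 0.05. The median log2 fold change was -0.58, and -0.34 once paired entries, described further on, were summed, against -0.43 for complex I under both. By part, the median was -0.17 for the 5 F1 subunits, -0.85 for the 3 c subunit genes, -0.73 for the 4 stalk members and -0.79 for the 4 small membrane subunits. Summed CPM of F1 was 6691, 5427 and 6510 in #1, #2 and #3 and 4678 in the control (mean of the subclones 133% of the control), and that of the c ring genes was 981, 932 and 907 against 1797 (52.3%).

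The c subunit is encoded by 3 genes whose mature proteins are the same, and 2 of them fell. *Atp5mc1* (ENSRNOG00000007235, chromosome 10, 83895947 to 83898527, minus strand) was at 154, 189 and 122 CPM in #1, #2 and #3 and 480 CPM in the control (-1.63 ± 0.27 SE, adjusted p = 0.0164). *Atp5mc3* (ENSRNOG00000001596, chromosome 3, 60811210 to 60813869, minus strand) was at 232, 264 and 224 CPM against 434 CPM (-0.85 ± 0.22 SE, adjusted p = 0.0463). *Atp5mc2* was at 595, 479 and 561 CPM against 883 CPM and was not called (-0.70 ± 0.22 SE, adjusted p = 0.0751). All 3 were above every subclone in the control, as were 37.6% of all tested genes, and their changes differed in size. The share of *Atp5mc1* in their summed FPKM was 18.1%, 23.4% and 15.7% in the subclones and 30.4% in the control, whereas that of *Atp5mc2* was 60.7%, 51.3% and 62.2% against 48.4%, and that of *Atp5mc3* was 21.1%, 25.3% and 22.2% against 21.2%.

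*Atp5me* (ENSRNOG00000000064, chromosome 14, 2325308 to 2326436, plus strand), a small membrane subunit that takes part in dimer formation, was at 68.6, 83.3 and 58.8 CPM in #1, #2 and #3 and 149 CPM in the control (-1.09 ± 0.27 SE, adjusted p = 0.0431). The control was above all 3 subclones, as for 37.6% of all tested genes. None of the F1 subunits was called in the main edgeR fit, by DESeq2 or by limma, with 1 at an unadjusted p under 0.05 in that edgeR fit. *Atp5f1b* was called higher in 2 of 14 alternative settings. *Atp5f1b* had the highest level per length of all members, 2337, 1798 and 2250 FPKM in the subclones and 1325 FPKM in the control (0.69 ± 0.23 SE on the counts, adjusted p = 0.0871), and it overlaps other entries. The alpha subunit *Atp5f1a* was at 1378, 1307 and 1453 CPM against 1096 CPM (0.33 ± 0.20 SE, adjusted p = 0.274). *Atp5f1c*, the gamma subunit of the rotor, was at 269, 267 and 258 CPM against 299 CPM (-0.17 ± 0.21 SE, adjusted p = 0.586). Thus the control was below all subclones for the subunits of the catalytic hexamer, *Atp5f1a* and *Atp5f1b*, and above them for the gamma subunit and the c ring genes. In this group the main edgeR fit called *Atp5mc1* and *Atp5mc3*. For *Atp5f1e*, the epsilon subunit of the rotor, the control at 275 CPM lay inside the range of the subclones (282, 201 and 228 CPM).

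Members with short transcripts tended to lie lower, and the same held for all genes. When the 15028 tested genes were cut into 5 classes by exon length, the median log2 fold change was -0.47 in the shortest class (49 to 1062 bases), -0.12, 0.10 and 0.23 in the next ones and 0.38 in the longest (3777 to 28192 bases). Of the 91 tested members, 61 were in the shortest class, with a median of -0.57, and 17 in the next, with a median of -0.18. The shortest class held 7 of the 9 members called lower, and 10.1% of all its genes were called lower. Spearman's rho between length and log2 fold change was 0.31 over the members and 0.20 over all tested genes, values across genes of the same 4 libraries that are not independent replicates.

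After each library was corrected for gene length with a loess curve, the median was -0.14 over the members and -0.09 over all tested genes, and 52 of the 91 members lay below 0, beside 8015 of the 15028 genes. The median of complex III turned to 0.13 and that of complex IV to 0.094, while complex I was at -0.15 and complex V at -0.33. The medians of the core subunits of complex I and of F1 also turned, to 0.093 and 0.19. The core members of complex III kept a median of 0.63, their small members -0.49 and the c ring genes -0.54. Of the 9 members called lower, 4 were called again, namely *Atp5mc1*, *Ndufs4*, *Ndufaf4* and *Uqcrb* on chromosome 7, with *Atp5pb* as the fifth call, and *Ndufaf1* was called higher again. The core subunits of complex III have a median length of 1615 bases and the small ones 527.5.

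**Figure D3:**
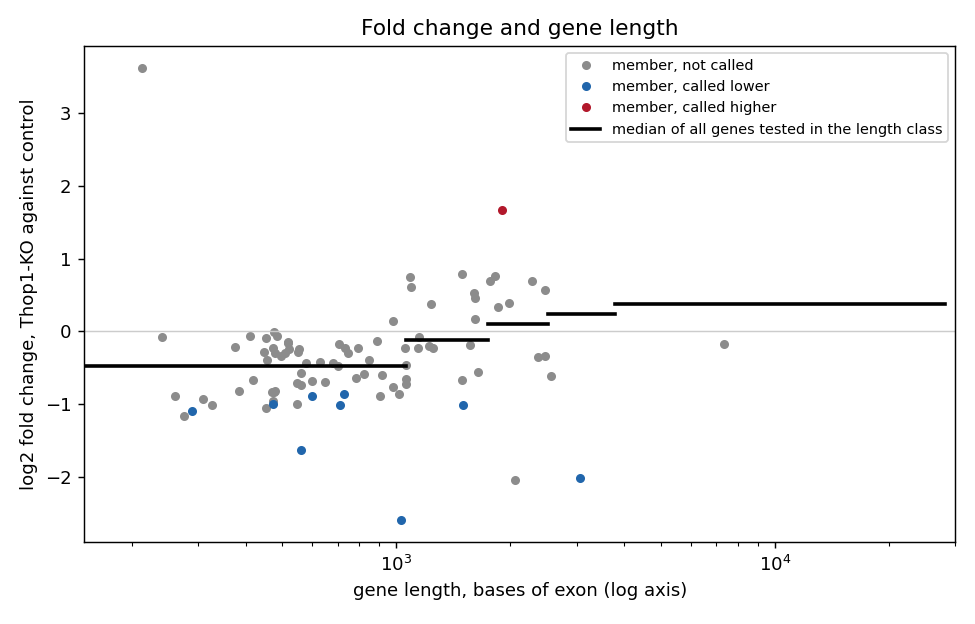
Log2 fold change of the 91 tested members (points, coloured by call) against exon length in bases on a log axis, with black lines for the median of all tested genes in 5 length classes. The class medians rise from -0.47 to 0.38, and most members lie in the shortest class.

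The subclones differed among themselves for a few members. The ratio of the highest to the lowest subclone had a median of 1.29 over the tested members, was under 1.5 for 73 and over 2 for 9. Subclone #1 was the highest of the 3 for 61 members, #2 for 26 and #3 for 4. *Ndufa1* (ENSRNOG00000040005, chromosome X, 124513269 to 124516705, minus strand), a small accessory subunit of complex I, had 4, 431 and 5 counts in #1, #2 and #3 and 10 counts in the control, so only #2 was high (3.61 ± 2.79 SE, adjusted p = 0.390). A second entry on chromosome X described as the same subunit, LOC108348144, had 597, 4, 8 and 475 counts, so the high library for one entry was low for the other. Summed, the entries had 601, 435, 13 and 485 counts (-0.68 ± 1.35 SE, adjusted p = 0.747), with subclone #3 low for both. Of 15028 tested genes, 6 (0.0399%) had a highest subclone over 20 times the next after 0.2 CPM was added to each, and 1 of them was a member.

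*Atp5pb*, the b subunit of the peripheral stalk, had 13, 14 and 22 counts in #1, #2 and #3 and 57 counts in the control (-2.03 ± 0.58 SE, adjusted p = 0.0613), low for a subunit of this complex. The entry LOC100911417, described as the same subunit and also on chromosome 2, had 33, 822, 29 and 18 counts. With both summed the counts were 46, 836, 51 and 75 and the direction turned (1.80 ± 1.71 SE, adjusted p = 0.484), the high value again being that of #2. For the subunit *Ndufs6*, which the rule did not take, the entries LOC679739 and LOC100912599 on chromosome 1 had 60, 6, 5 and 937 counts and 22, 5, 108 and 3 counts, and their sum of 82, 11, 113 and 940 was lower in every subclone (-4.01 ± 0.84 SE, adjusted p = 0.0288). These pairs were summed after the values were seen, and how reads were split between the entries was not tested.

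**Figure D4:**
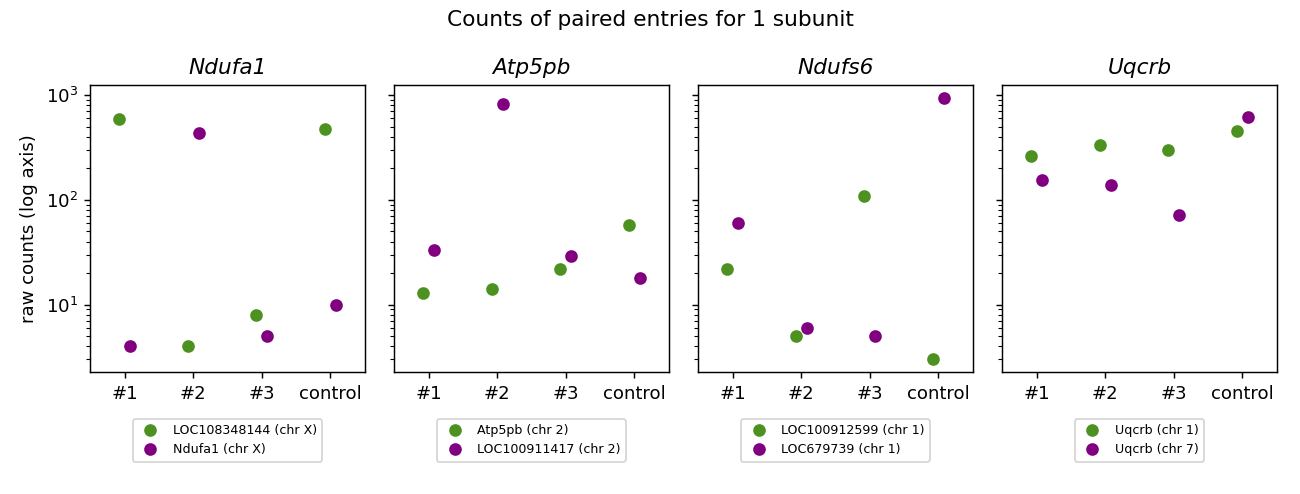
Raw counts (log axis) in the 3 *Thop1*-KO subclones and the control for paired entries described as the same subunit, in 1 panel per subunit. For *Ndufa1* the high entry differs between #2 and the libraries of #1 and the control, and for *Uqcrb* both entries are highest in the control.

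Of the 13 protein-coding mitochondrial genes, which encode partners of these subunits, 9 fell and 0 rose by edgeR. Over all genes tested, 5.17% were called lower and 8.62% higher. All 13 log2 fold changes of the mitochondrial genes lay below 0, as did 48.1% of all genes, and the median of the 13 was -1.44. Their summed level was 12823, 11968 and 12643 CPM in #1, #2 and #3 and 20673 CPM in the control. *Mt-co1*, a catalytic subunit of complex IV, was at 8137, 6010 and 6765 CPM against 7675 CPM, with the control inside the range of the subclones (-0.14 ± 0.21 SE, adjusted p = 0.674).

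Of 18 complex IV assembly factors edgeR called 1 higher and 1 lower, beside 13.8% called over all genes, DESeq2 2 and 1, and limma on log2(FPKM + 1) 1 and 0. *Cox15*, which makes the heme A of cytochrome oxidase, had 213, 170 and 245 counts in #1, #2 and #3 and 2 counts in the control, a ratio of 89.0 (95% exact counting interval 24.5 to 737, counting error only). *Coa5* was at 49.3, 69.2 and 57.3 CPM against 128 CPM (-1.13 ± 0.27 SE, adjusted p = 0.0386). Among 11 tested regulators of mitochondrial biogenesis edgeR called 1 higher and 1 lower, beside 13.8% called over all genes. DESeq2 called 2 higher and 1 lower. Limma on log2(FPKM + 1) called 0 higher, with 3 at an unadjusted p under 0.05, and 1 lower, and the other limma settings called 0 in either direction. *Esrra*, a nuclear receptor that activates respiratory genes, rose from 51.0 CPM in the control to 221, 122 and 173 CPM (1.76 ± 0.39 SE, edgeR adjusted p = 0.0343). *Tfb2m*, a factor for transcription of mitochondrial DNA, fell from 15.3 CPM to 4.23, 5.77 and 4.34 CPM (-1.68 ± 0.36 SE, adjusted p = 0.0310). The coactivator gene *Ppargc1a* had 0, 3, 1 and 0 counts and was not tested. By edgeR 0 of 7 complex III partners, 0 of 6 complex V assembly and regulation genes and 0 of 11 electron carriers were called, with 0, 1 and 2 at an unadjusted p under 0.05. DESeq2 and limma on log2(FPKM + 1) also called 0 in these lists, and limma without a filter called 1 electron carrier lower.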

How the data were processed

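RNA-seq of 1 control and 3 *Thop1*-KO libraries was analysed. The authors trimmed the reads with the FASTX toolkit and deposited FPKM values and raw counts for each gene. The submitters' processing notes name HISAT2 2.0.5 and featureCounts 1.5.0-p3, and the genome build and strand setting are not given in the sources used here, so overlapping and near-identical genes are uncertain. The deposited FPKM equal the counts per kilobase of exon times 1 factor per library. No sample column was left unused. Samples were grouped by their genotype labels.

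Counts were tested with edgeR 4.0.16 in R 4.3.3 (filterByExpr with a minimum count of 10, TMM, quasi-likelihood test, Benjamini-Hochberg over all genes tested, adjusted p under 0.05), with all 4 libraries and no covariate. The SE is the absolute log2 fold change divided by the square root of F, and folds use a prior count of 0.125. A count of 0 was taken to allow 3 counts. Intervals and limits cover counting error only. The fits were tested on simulated data. Alternatives were DESeq2 1.42.0, which the study names for its own calls, DESeq2's size factors, upper-quartile scaling or library size alone in edgeR, 2 other filters, limma 3.58.1 on log2 FPKM with a pseudocount of 1 (also unfiltered) or 0.1, a loess correction for gene length (span 0.3), leaving out each subclone, and narrower memberships. Summing paired entries was added after the data were seen. Promoters came from RefSeq (GRCr8), matched by symbol and chromosome.

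The members, roles and lists were chosen with earlier results of these data known. Genes named are *Thop1*, members called, the catalytic core subunits, members with a tissue paralog, in each complex the member highest and lowest in fold change and highest in FPKM, and called members of the other lists. An item of this rule is not reported here. *Pou5f1*, *Cyc1*, *Mt-cyb*, *Mt-co1*, *Atp5f1e*, *Ppargc1a*, *Thy1*, *Lum*, *Dcn* and the paired entries were named after their values were seen. Figures were drawn with Python 3.11.15, pandas 2.3.3 and matplotlib 3.10.9, and intervals with scipy 1.17.1.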

Additional observations from a re-analysis of the deposited data

How the results depend on the processing

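Beside the 9 members called lower, upper-quartile scaling called 15 lower and DESeq2 14, both holding all 9. Limma on log2(FPKM + 1) called 3 lower, all among the 9, and limma on log2(FPKM + 0.1) called 0 (16 lower at an unadjusted p under 0.05). Limma without a filter called 2 lower, of which 0 were among the 9, and the length correction gave 5, of which 4 were among the 9. The 1 called higher became 2 with library size only, and 0 with limma without a filter (5 at an unadjusted p under 0.05) or with subunits only (5). Genes called over the whole table, 2072 as reported, were 1378 with limma on log2(FPKM + 0.1) and 845 with limma without a filter. Leaving out 1 subclone gave 457 to 5572 genes, 1 to 34 members lower and 0 to 8 higher, with the low end without #3 and the high end without #2. Under the length correction the medians were -0.14 over all members, -0.15 for complex I, 0.13 for III, 0.094 for IV and -0.33 for V. With paired entries summed, the complex V median was -0.34. The median of all genes moved by 0.11 with DESeq2, 0.14 without a filter and -0.14 with the length correction, and by less than 0.1 under the other scalings.

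Direction turned under the length correction for *Cox6a1* (0.14), *Cox4i1* (0.091), *Cox5b* (0.38), *Cox8a* (0.10), *Ndufb7* (0.17), *Sdhc* (0.036), *Ndufv2* (0.093), *Cox6c* (0.18), *Ndufs8* (0.0083) and *Cox7b2* (0.39), none of them called. It turned for *Cox5b* with library size only (7.0e-05), and when subclones were left out for *Cox7b2* (-0.18 to 0.019, turning without #3), *Ndufa1* (-1.35 to 4.20) and *Cox4i2* (-0.43 to 0.037), both turning without #2. It turned with entries summed for *Ndufa1* (-0.68) and *Atp5pb* (1.80). Over the named genes and alternatives, 639 values kept direction and call, 75 lost the call, 20 gained one and 16 turned. The causes were not tested. No paired analysis was possible because the control has 1 library and shares fewer than 2 replicate numbers with the subclones. Members with up to 3 counts per library could not be compared at this depth.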
